A study of Mus musculus with 2 samples.

Results

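The genes of intraflagellar transport and of the BBSome were followed across the cells of a CD133 sort from mouse spinal cord. They were taken by symbol, as every row named Ift or Bbs with a digit plus 18 named genes of the same complexes and motors, which gave 40 of the 24071 rows, and all 40 were listed in both tables. The data were 2 droplet libraries of live CD45- CD133+ cells from adult C57BL/6j mice (10 to 12 weeks of age), 1 of DNGR-1 traced and 1 of non-traced cells. All animals were Clec9acre/creR26LSLtdTomato/LSLtdTomato, with Cre at Clec9a, which encodes the dendritic cell receptor DNGR-1, and tdTomato behind a floxed stop, so that traced cells are those with present or past Clec9a activity, and both groups lack an unmodified Clec9a allele. Spinal cords were pooled, the tracing reports the history of the Clec9a promoter rather than a cell type, and each group was a single library, so no difference below has a replicate check and none was tested. The intervals given are at the 95% level and cover counting error only.

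A cilium is built by trains of IFT-B and IFT-A particles that kinesin-2 carries from the base to the tip and dynein-2 carries back. The BBSome is a coat of Bbs proteins that rides on these trains and moves membrane proteins in and out of the cilium, and its loss causes Bardet-Biedl syndrome. Ependymal cells bear motile cilia that move cerebrospinal fluid, whereas many other cell types can bear a single primary cilium that is made by the same transport machinery.

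The libraries held 25411 non-traced and 4825 traced barcodes, with medians of 7218 and 8566 unique molecular identifiers (UMIs, tags of single captured RNA molecules), and 42 barcodes occurred in both. Cells were clustered without the 40 genes and named by marker genes, which gave 1159 non-traced and 4758 traced ependymal-like cells, 21032 non-traced endothelial-like cells and 280 non-traced mural-like cells. The 10 ependymal markers, among them Foxj1 and Pifo, summed to 11340 CPM (UMIs scaled to an equal total for each class) in the non-traced ependymal-like cells and to 21.1 CPM in the endothelial-like cells. The mural-like cells, led by the contractile genes Tagln, Acta2 and Myh11, had 24311 CPM of the 8 mural markers, with 666 CPM of ependymal and 2028 CPM of endothelial markers beside them. Of the ependymal sum, 566 CPM was Rarres2 alone, at 24.6% of its ependymal level. Esam gave 494 CPM of the endothelial sum. The 5 erythroid markers (globins and Alas2) summed to 12978 CPM in the mural-like, 988.5 CPM in the endothelial-like and 25.7 CPM in the non-traced ependymal-like cells, and their part in the mural values was not tested. The mural-like class depended on the integration of the libraries: without it the class was a cluster of 168 cells led by the pericyte genes Vtn, Kcnj8 and Art3. A further 2908 non-traced cells (11.4%) and 8 traced cells (0.166%) carried markers of more than 1 class or were led by erythroid genes and entered no class. Of the non-traced ones, 1964 were in clusters with both endothelial and mural markers and are not part of the 280 mural-like cells. Over both libraries, a mixed cluster of 1719 cells was led by the mural markers Rgs5, Abcc9 and Vtn. Traced endothelial-like cells numbered 59 and held 1330 CPM of ependymal markers, so they are given only side by side. The numbers of cells per class follow from the sort and were not compared.

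Promoters are shown first. RFX factors, which with FOXJ1 drive ciliary genes, bind a motif called the X-box, made of a pair of inverted half-sites. RefSeq promoter windows (GRCm38.p6, 250 bases before to 50 after the start of the transcript) matched 35 of the 40 genes, with no entry for Ift122, Ift80, Ift81, Dync2li1 and Ttc30b. The half-site GTTGCC, on either strand, was present in 14 of these 35 (40%) and in 14.1% of the promoters of all 27025 genes. A pair of half-sites 2 bases apart (GTTGCCNNGGCAAC, which reads the same on both strands, with up to 2 mismatches) was present in 9 of 35 (25.7%) against 3.27% of all genes, and 6 of these 9 promoters also hold an exact half-site. Of the 3 further lists of ciliary genes described below, a pair was present in 9 of 18 transition zone, 4 of 18 motile axoneme and 2 of 19 other trafficking promoters. The following stretches of 140 bases end just before the first annotated start of each gene and run 5′ to 3′ on the strand of the gene. They are chr3:36613478-36613617 (minus strand) for Bbs7, chr5:136908010-136908149 (plus) for Ift22, chr16:49699093-49699232 (plus) for Ift57, chr17:25015945-25016084 (plus) for Ift140 and chr2:153291273-153291412 (plus) for Kif3b, the gene with the smallest ependymal minus endothelial difference. Capitals mark the paired half-sites.
Bbs7: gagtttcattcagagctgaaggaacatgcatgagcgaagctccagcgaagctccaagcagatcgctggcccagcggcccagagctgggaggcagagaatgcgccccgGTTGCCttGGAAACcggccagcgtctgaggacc
Ift22: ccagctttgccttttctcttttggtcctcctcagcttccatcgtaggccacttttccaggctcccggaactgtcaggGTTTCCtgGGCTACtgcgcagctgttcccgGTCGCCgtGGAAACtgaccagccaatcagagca
Ift57: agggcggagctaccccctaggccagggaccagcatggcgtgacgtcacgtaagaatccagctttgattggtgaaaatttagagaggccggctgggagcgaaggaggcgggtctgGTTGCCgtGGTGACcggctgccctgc
Ift140: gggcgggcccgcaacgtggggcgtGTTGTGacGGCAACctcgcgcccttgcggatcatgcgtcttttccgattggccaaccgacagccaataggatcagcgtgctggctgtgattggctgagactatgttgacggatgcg
Kif3b: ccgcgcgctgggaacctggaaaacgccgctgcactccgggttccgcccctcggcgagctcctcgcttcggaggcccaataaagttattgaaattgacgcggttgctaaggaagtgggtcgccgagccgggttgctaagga
The Bbs7 pair differed from the motif at 1 base, those of Ift22, Ift57 and Ift140 differed at 2, and Ift22 held a pair at 2 places. The Kif3b stretch held no exact half-site and no pair, and Wdr35, the gene with the largest difference, had no pair in its promoter either. The median ependymal minus endothelial difference, on the log2(CPM + 1) scale, was 2.78 for the 14 genes with a half-site (0.54 to 6.93) and 2.35 for the 21 without one (0.01 to 4.92); these ranges overlap. For the paired motif it was 3.01 for the 9 genes with a pair (1.72 to 4.92) and 2.41 for the 26 without one (0.01 to 6.93). A match of letters describes the sequence only, and a role of RFX factors in these levels was not tested. The promoters of all genes were not matched to those of the 35 for base content.

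In the non-traced library, all 40 genes had their highest value in ependymal-like cells, although the interval overlapped with the endothelial one for Kif3b and with the mural one for Bbs12, Ift43, Kif3b and Ttc21b. At least a 2-fold difference, on the log2(CPM + 1) scale, was reached by 37 of 40 over endothelial-like cells, where 20.5% of all rows with a UMI were that much higher, and none of the 40 was 2-fold lower, against 11.5% of all rows. Their median difference was 2.75, against 0.085 over the 23230 rows. Summed over the 40 genes, the level was 4112 CPM in ependymal-like cells (interval 4069 to 4154) and 609.7 CPM in endothelial-like cells (606.2 to 613.3), a ratio of 6.74. Over mural-like cells, 34 of 40 were at least 2-fold higher, where 21.9% of all rows were, and none was 2-fold lower, against 13.8%. The median difference to mural-like cells was 2.38, against 0.16 over all rows, and the summed mural level was 1066 CPM (1014 to 1119), a ratio of 3.86. These comparisons share the non-traced ependymal-like cells. The order of the classes was ependymal, mural, endothelial for 31 genes and ependymal, endothelial, mural for 9, but the intervals of the mural and endothelial levels overlapped for 23 genes. Mitochondrial transcripts, whose share moves with cell stress and handling, had a median of 5.80% of UMIs in non-traced ependymal-like cells, 3.37% in endothelial-like and 4.20% in mural-like cells. With cells of at most 5% mitochondrial UMIs the summed ratios to endothelial-like and mural-like cells were 6.804 and 3.91. That limit left 334 of the 1159 non-traced ependymal-like cells.

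**Figure D1:**
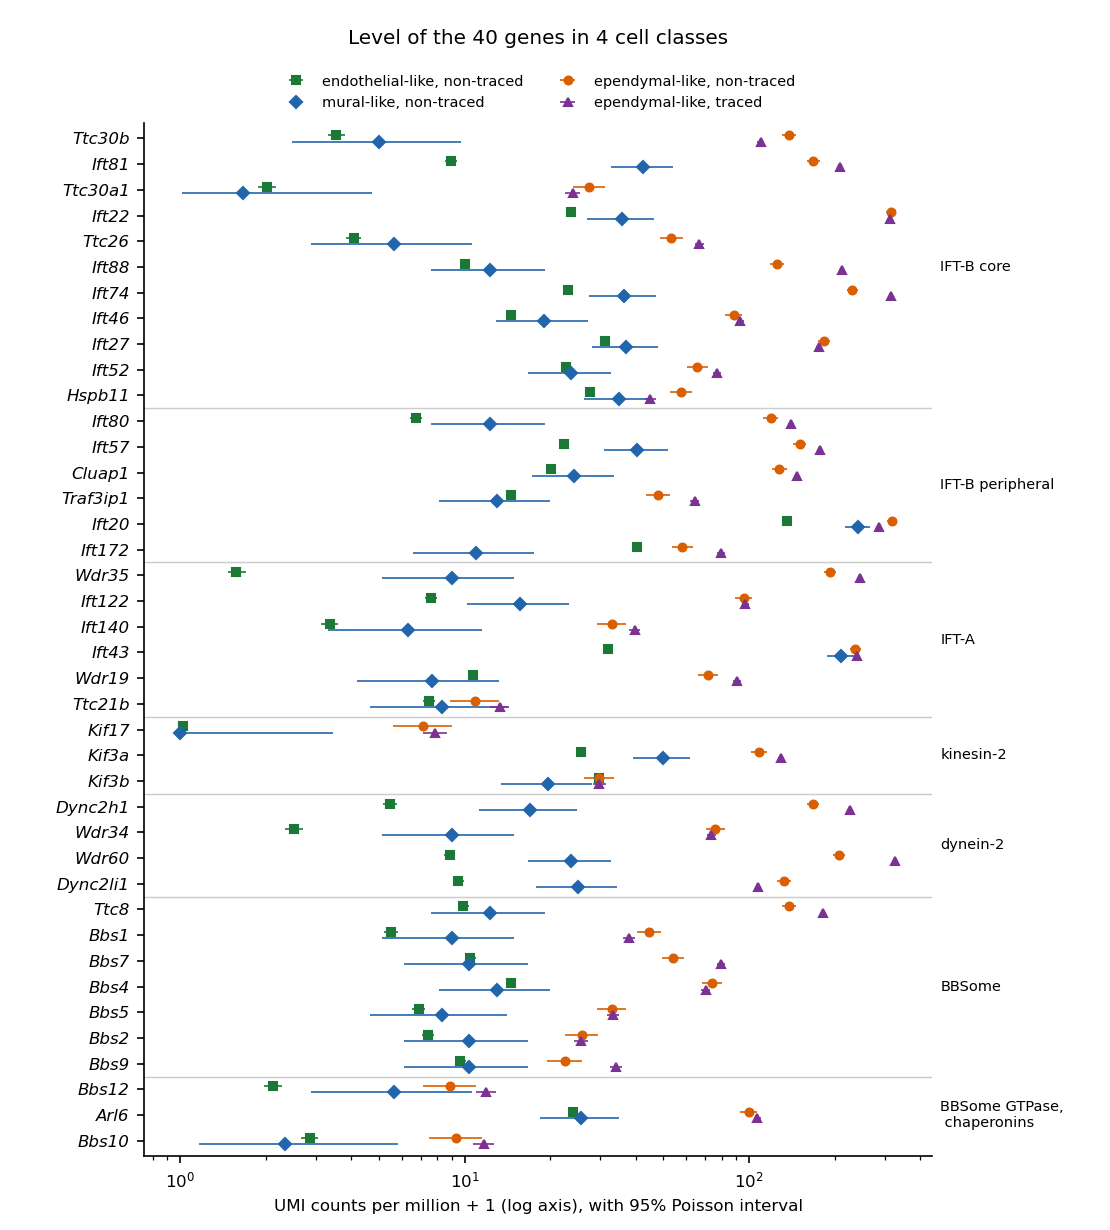
Level of each of the 40 genes, as CPM + 1 on a log axis with 95% Poisson intervals, in non-traced ependymal-like (circles), traced ependymal-like (triangles), non-traced endothelial-like (squares) and non-traced mural-like cells (diamonds), grouped by complex. Ependymal-like points lie to the right of endothelial-like points except at Kif3b, and the mural-like point of Ift43 lies beside the ependymal-like ones. Counts come from transcript 3′ ends and were not divided by length, so levels of different genes are not comparable.

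The 11 genes of the IFT-B core, the stable centre of the IFT-B particle, were all at least 2-fold higher in ependymal-like than in endothelial-like cells, by 1.06 to 5.28 on the log2(CPM + 1) scale, with a summed ratio of 8.99. Ttc30b, which encodes a tetratricopeptide repeat subunit, stood at 136.8 CPM in ependymal-like, 2.55 CPM in endothelial-like and 3.998 CPM in mural-like cells. It had the largest difference of the group to endothelial cells, a ratio of 53.8 (48.3 to 60.0). Ttc30b and Ttc30a1 are near-identical copies whose reads the counting may have split or dropped, so both levels are uncertain. Hspb11, the partner of the small GTPase Ift27, had the smallest difference, with 56.6 CPM in ependymal-like, 26.7 CPM in endothelial-like and 34.0 CPM in mural-like cells. Its endothelial level was 47.1% of the ependymal level and its difference to mural-like cells, 0.72, was below 2-fold. Ift88, whose loss leaves cells without cilia in mice, stood at 124.3 CPM in ependymal-like, 11.3 CPM in mural-like and 9.04 CPM in endothelial-like cells. Ift81, which binds tubulin together with Ift74, stood at 167.0 CPM in ependymal-like, 41.3 CPM in mural-like and 7.97 CPM in endothelial-like cells. Hspb11, Ift74, Ift81 and Ttc26 each overlap another annotated gene on the same strand, and counts there may be shared.

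Among the 6 peripheral IFT-B genes, 5 were at least 2-fold higher in ependymal-like than in endothelial-like cells. Ift80 had the largest difference, 4.14 on the log2(CPM + 1) scale, with 118.2 CPM in ependymal-like, 5.75 CPM in endothelial-like and 11.3 CPM in mural-like cells. Ift172 (ENSMUSG00000038564.11, chromosome 5, positions 31253277 to 31291116) encodes the largest IFT-B subunit, and its endothelial level was close to the ependymal one. It stood at 57.3 CPM in ependymal-like cells (52.4 to 62.6), 39.2 CPM in endothelial-like cells (38.3 to 40.1) and 9.996 CPM in mural-like cells (5.59 to 16.5). Endothelial-like cells thus had 68.5% of the ependymal level, and mural-like cells were the low class. Ift20, whose protein also resides at the Golgi apparatus, was measured at 315.6 CPM in ependymal-like, 239.9 CPM in mural-like and 134.7 CPM in endothelial-like cells. The difference of Ift20 to mural-like cells was 0.39, below 2-fold, although the intervals of the levels did not overlap.

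The IFT-A genes, which serve return transport and the entry of membrane proteins, held the widest range, from 0.53 to 6.93 on the log2(CPM + 1) scale, with 5 of 6 at least 2-fold higher in ependymal-like than in endothelial-like cells. Wdr35 (ENSMUSG00000066643.12, chromosome 12, positions 8973892 to 9028847), a structural IFT-A subunit, stood at 191.7 CPM in ependymal-like cells (183 to 201), 0.578 CPM in endothelial-like cells (0.474 to 0.699) and 7.997 CPM in mural-like cells (4.13 to 14.0). The endothelial value rests on 107 UMIs in 21032 cells, and the CPM ratio was 332 (273 to 407). Ttc21b, a further IFT-A subunit, had low levels in all 3 classes, 9.84 CPM in ependymal-like, 6.501 CPM in endothelial-like and 7.33 CPM in mural-like cells, and the mural interval (3.66 to 13.1) spanned both others. Ift43 (ENSMUSG00000007867.9, chromosome 12, positions 86082541 to 86162459), a small IFT-A subunit, was measured at 235.5 CPM in ependymal-like cells (225 to 246) and 209.9 CPM in mural-like cells (187 to 234), with overlapping intervals, but at 31.0 CPM in endothelial-like cells (30.2 to 31.8). In cells thinned to 1000 UMIs each, an Ift43 UMI was found in 20.1% of ependymal-like (17.8 to 22.5), 20.0% of mural-like (15.5 to 25.2) and 3.02% of endothelial-like cells (2.80 to 3.26).

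Of the kinesin-2 genes taken by the rule, the motor subunit Kif3a was higher in ependymal-like cells. Its partner Kif3b was the member of the 40 with the smallest difference. Kif3b (ENSMUSG00000027475.9, chromosome 2, positions 153291413 to 153333390) stood at 28.7 CPM in ependymal-like cells (25.3 to 32.5), 28.6 CPM in endothelial-like cells (27.8 to 29.4) and 18.7 CPM in mural-like cells (12.4 to 27.0). The CPM ratio of ependymal-like to endothelial-like cells was 1.005, with an interval of 0.881 to 1.14. Kif3a stood at 107.4 CPM in ependymal-like, 24.6 CPM in endothelial-like and 48.6 CPM in mural-like cells, so the subunits of 1 motor differed in pattern. Kif17, which encodes the motor of a kinesin-2 homodimer and overlaps Sh2d5 on the same strand, had 53 UMIs in ependymal-like cells (6.14 CPM), 4 UMIs in endothelial-like cells and 0 in mural-like cells. A count of 0 in the mural-like cells allows up to 1.999 CPM, which puts the ependymal level at least 3.07-fold higher.

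The 4 genes of dynein-2, the motor of the return journey, that were taken by the rule were all higher in ependymal-like than in endothelial-like cells. Their differences were 3.804 to 4.94 on the log2(CPM + 1) scale, and their summed ratio of 26.0 was the highest of the 7 groups. Dynein light chains were outside the rule and are among the other trafficking genes below. The heavy chain Dync2h1 had the largest difference, with 166.8 CPM in ependymal-like, 4.46 CPM in endothelial-like and 16.0 CPM in mural-like cells. The light intermediate chain Dync2li1 had the smallest, with 131.8 CPM in ependymal-like, 8.51 CPM in endothelial-like and 23.99 CPM in mural-like cells. The intermediate chains Wdr34 and Wdr60 lay between them at 4.92 and 4.55, and Wdr60 overlaps a small annotated gene on its strand.

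The 7 BBSome genes taken by the rule were all at least 2-fold higher in ependymal-like cells than in both vascular classes. Their summed ratio was 6.71 to endothelial-like and 5.78 to mural-like cells. Ttc8, a repeat protein of the coat, had the largest difference to endothelial-like cells, 3.803 on the log2(CPM + 1) scale, with 137.1 CPM in ependymal-like, 8.90 CPM in endothelial-like and 11.3 CPM in mural-like cells. Bbs9, a central subunit of the coat, had the smallest of the 7, 1.22, with 21.5 CPM, 8.65 CPM and 9.33 CPM in the same order. Bbs1, Bbs2, Bbs4, Bbs5 and Bbs7 lay between, and the mural and endothelial values of each of the 7 differed by less than 2-fold. Of the helpers of the BBSome, the GTPase Arl6, which recruits the coat to membranes, stood at 98.5 CPM in ependymal-like, 23.1 CPM in endothelial-like and 24.7 CPM in mural-like cells. The chaperonin-like genes Bbs10 and Bbs12, which help the BBSome to assemble, had the smallest and the largest difference to endothelial-like cells among the 3 helpers, 1.71 and 2.07. Bbs10 stood at 8.34 CPM in ependymal-like cells against 1.85 CPM in endothelial-like cells, and Bbs12 at 7.87 CPM and 1.12 CPM. In mural-like cells these values rest on 2 UMIs of Bbs10 and 7 of Bbs12. Bbip1, a further gene of the BBSome, was outside the rule and below a 2-fold difference to either vascular class. It stood at 154.0 CPM in ependymal-like, 99.4 CPM in endothelial-like and 85.3 CPM in mural-like cells. Mkks, a further chaperonin-like gene of the BBSome, was also outside the rule and was not higher in ependymal-like cells. Its CPM ratio was 0.912 to endothelial-like (0.825 to 1.005) and 0.669 to mural-like cells (0.541 to 0.834).

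Mural-like and endothelial-like cells were closer to each other. At least a 2-fold higher mural level was found for 9 of 40 genes, where 12.2% of all rows were that much higher, and a 2-fold lower one for 1, where 9.68% of all rows were. The median difference was 0.43, against -0.031 over all rows. The 9 genes were Ift43, Wdr35, Ift81, all 4 dynein-2 genes, Bbs12 and Ift122, and the 1 lower gene was Ift172. The value of Bbs12 rests on 7 mural UMIs and turned to -1.31 in cells thinned to 1000 UMIs. Without cells holding UMIs of 2 markers of another class, which left 26 mural-like cells, the differences of Ift122 and Wdr34 turned to -2.91 and -1.28. The 2-fold lower genes numbered 7 after thinning and 18 without those cells. Ift43 had the largest difference, 2.72 on the log2(CPM + 1) scale, and a CPM ratio of 6.76 (6.02 to 7.58). Ift172 had the largest in the other direction, -1.87, a CPM ratio of 0.255 (0.143 to 0.421). With cells thinned to 1000 UMIs, the difference of Ift81 was 0.42 in place of 2.24, and that of Wdr35, 2.51, was 3.58 with a pseudocount of 0.1 CPM and 1.22 with 5 CPM. Ependymal transcripts were also found in the mural-like class, beside the erythroid and endothelial ones given above, and their part in the mural values was not tested. The 20 motile axoneme genes used as a reference had a median of 1.67% of their ependymal level in mural-like cells and at most 8.16%. Above that highest value lay 37 of the 40 genes, 26 of them with their interval. The mural level of Ift43 was 89.1% of the ependymal level.

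Droplets also hold free RNA, so the endothelial levels were set against genes that endothelial cells should lack. The 20 motile axoneme genes, such as the dynein heavy chains Dnah5 and Dnah9, the central pair gene Hydin and the tektin Tekt1, had a median of 0.130% of their ependymal level in endothelial-like cells of the same library. The highest was Cfap43 with 2.92%. The 40 transport and BBSome genes had a median of 14.0%, from 0.302% for Wdr35 to 99.5% for Kif3b, and 35 of 40 lay above 2.92% with their whole interval. The 5 that did not were Wdr35, Kif17, Ttc30b, Wdr34 and Dync2h1. In the opposite direction, the 8 endothelial markers had a median of 1.68% of their endothelial level in non-traced ependymal-like cells.

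**Figure D2:**
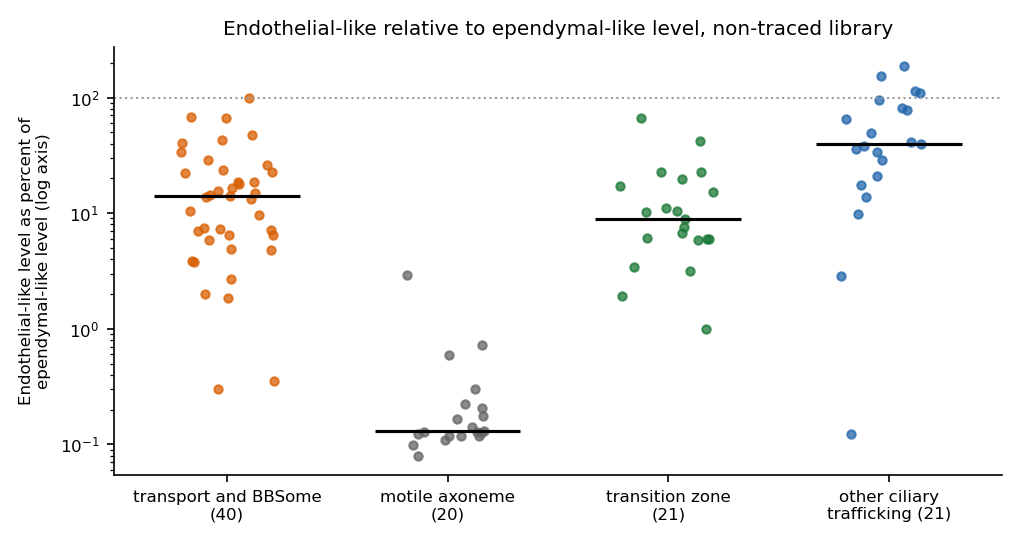
Level in endothelial-like cells as a percent of that in ependymal-like cells of the non-traced library, on a log axis, for the 40 genes and 3 further lists of 20, 21 and 21 genes. Each point is a gene, black lines are medians, and the dotted line marks equal levels. The 40 genes have a median of 14.0%, and the motile axoneme genes a median of 0.130%.

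Shares of cells with a UMI were compared at equal depth. After thinning to 1000 UMIs, a UMI of any of the 40 genes was found in 96.9% of non-traced ependymal-like (95.7 to 97.8), 98.9% of traced ependymal-like (98.6 to 99.2), 65.7% of mural-like (59.8 to 71.3) and 45.7% of endothelial-like cells (44.99 to 46.3). Unthinned, the shares were 100%, 100%, 96.8% and 97.4%, at median depths of 7069, 8564, 4532 and 6929.5 UMIs. The median number of UMIs of the 40 genes per 1000 was 4 in both ependymal classes, 1 in mural-like and 0 in endothelial-like cells. Single genes were sparse at this depth. Wdr35 was found in 16.3% of non-traced ependymal-like and 0.0618% of endothelial-like cells, and Kif3b in 3.28% and 2.62%.

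Transition zone genes and other ciliary trafficking genes were described in the same way, with no gene in common with the 40. Of 21 genes of the transition zone, the gate at the base of the cilium, 20 were at least 2-fold higher in ependymal-like than in endothelial-like cells and none was lower, with a median difference of 3.37 on the log2(CPM + 1) scale. The largest differences were those of Tmem107 (6.32), Tmem17 (5.07) and Tctn2 (4.51), and the smallest those of Rpgrip1 (0.56), Tmem237 (1.23) and Iqcb1 (2.02). Of 21 other trafficking genes, among them motor light chains and GTPases that also serve elsewhere in the cell, 11 were at least 2-fold higher and none 2-fold lower, with a median of 1.34. Dynlrb2 (8.73), Rabl2 (4.94) and Pde6d (3.31) had the largest differences. The smallest differences were those of Rab8a (-0.88), Dynlrb1 (-0.61) and Mkks (-0.13). Rab8a and Dynlrb1 had lower levels in ependymal-like than in endothelial-like cells, each by less than 2-fold. For Mkks the interval of the CPM ratio, 0.825 to 1.005, included 1.

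**Figure D3:**
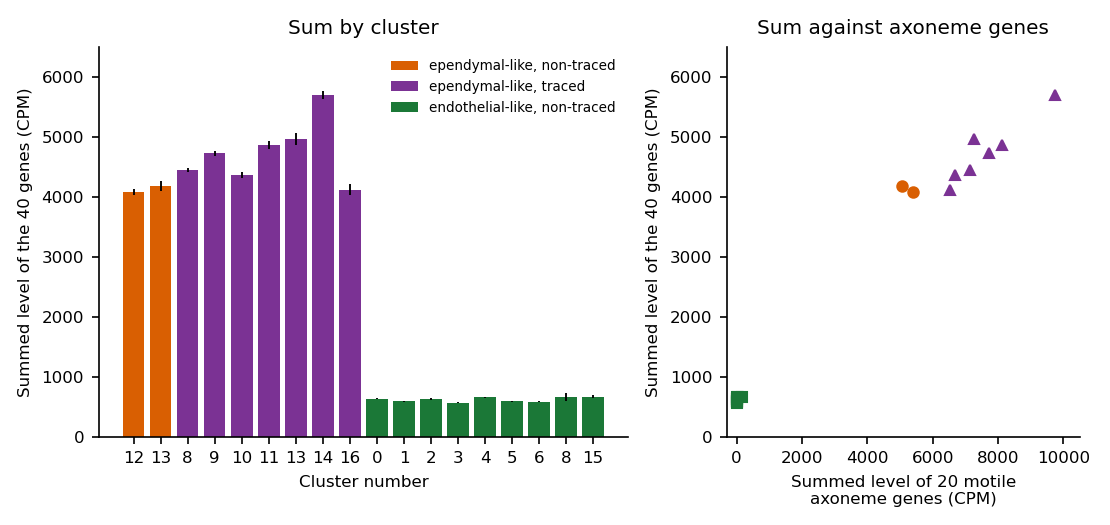
Left, summed level of the 40 genes in CPM, with 95% Poisson intervals, in each cluster with at least 50 cells of a class. Right, the same sums against the summed level of 20 motile axoneme genes, with circles for non-traced ependymal-like, triangles for traced ependymal-like and squares for endothelial-like cells. Endothelial-like clusters lie between 568.8 and 669.0 CPM, and ependymal-like clusters between 4081 and 5699 CPM.

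Within a class, the summed level varied less than between classes. The 9 endothelial-like clusters ran from 568.8 to 669.0 CPM, and both non-traced ependymal-like clusters stood close together at 4081 and 4179 CPM. The 7 traced ependymal-like clusters ran from 4122 CPM (4026 to 4220) in cluster 16 to 5699 CPM (5638 to 5761) in cluster 14. The motile axoneme genes, which were not left out of the clustering, were also lowest in cluster 16 of the traced clusters, at 6538 CPM. They were highest in cluster 14, at 9746 CPM. Over the traced clusters the level of single genes varied by 1.19-fold for Bbs9 up to 1.91-fold for Bbs12, with Dync2h1 ranging from 173.1 to 324.9 CPM.

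The design of the study set traced against non-traced cells. None of the 40 genes differed by 2-fold between the ependymal-like cells of the libraries, where 0.693% of all rows were at least 2-fold higher and 2.06% at least 2-fold lower in the traced ones. The differences ran from -0.36 to 0.75 on the log2(CPM + 1) scale, with a median of 0.23 against -0.0086 over all rows. The traced cells summed to 4709 CPM and the non-traced cells to 4112 CPM, a ratio of 1.15 (1.13 to 1.16), and that of the motile axoneme genes 7596 CPM and 5296 CPM, a ratio of 1.43. The same ratio was 1.09 for the transition zone genes, 1.02 for the other trafficking genes and 0.903 (0.897 to 0.910) for the 10 ependymal markers. The interval of the ratio lay above 1 for 20 genes, below 1 for 5 and included 1 for 15. This comparison shares the non-traced ependymal-like cells with those above. Beside these ratios, mitochondrial transcripts were a median of 3.99% of UMIs per traced cell and 5.80% per non-traced cell, and endothelial markers stood at a median of 0.105% and 1.68% of their endothelial level. With cells of at most 5% mitochondrial UMIs, and without cells carrying UMIs of 2 markers of another class, the ratio of the summed levels was 1.15 and 1.16. These filters left 334 and 384 of the 1159 non-traced and 3791 and 4708 of the 4758 traced ependymal-like cells.

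The largest differences toward the traced cells were those of Ift88, Wdr60, Bbs9, Bbs7 and Ift172. Ift88 stood at 210.3 CPM in the traced library against 124.3 CPM, a ratio of 1.69 (1.59 to 1.80). Its levels in the 7 traced clusters, 178.5 to 281.2 CPM, stood beside 123.2 and 126.8 CPM in the non-traced clusters. Wdr60 stood at 323.6 CPM and 206.3 CPM, a ratio of 1.57 (1.49 to 1.65), with 279.5 to 376.3 CPM in the traced and 203.4 and 212.7 CPM in the non-traced clusters. Clusters are not replicates. Bbs9 stood at 33.1 CPM and 21.5 CPM, a ratio of 1.54 (1.32 to 1.80), Bbs7 at 78.6 CPM and 53.0 CPM, 1.48 (1.34 to 1.64), and Ift172 at 78.9 CPM and 57.3 CPM, 1.38 (1.25 to 1.51). Subunits of the same complex thus lay on both sides, since the lowest ratios belonged to Hspb11, Ttc30b, Dync2li1, Bbs1 and Ttc30a1. Hspb11 stood at 44.0 CPM in the traced library against 56.6 CPM, a ratio of 0.777 (0.703 to 0.859), and Ttc30b at 108.9 CPM and 136.8 CPM, 0.796 (0.747 to 0.849). Dync2li1 had a ratio of 0.808 (0.757 to 0.863), Bbs1 of 0.846 (0.756 to 0.949) and Ttc30a1 of 0.870 (0.753 to 1.008). The clusters had levels of Dync2li1 of 97.1 to 137.3 CPM in the traced and 119.7 and 137.2 CPM in the non-traced ones. Without integration, clusters 6, 7, 10 and 12 each held at least 50 ependymal-like cells of both libraries, and levels within them were not compared. In the integrated clustering, cluster 13 was the only cluster with at least 50 ependymal-like cells of each library. There the traced cells had 225.5 CPM of Ift88 and 54.8 CPM of Hspb11, against 126.8 CPM and 59.5 CPM in the non-traced cells. Bbs1 was nearly equal there, with 44.3 CPM in the traced and 43.5 CPM in the non-traced cells.

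**Figure D4:**
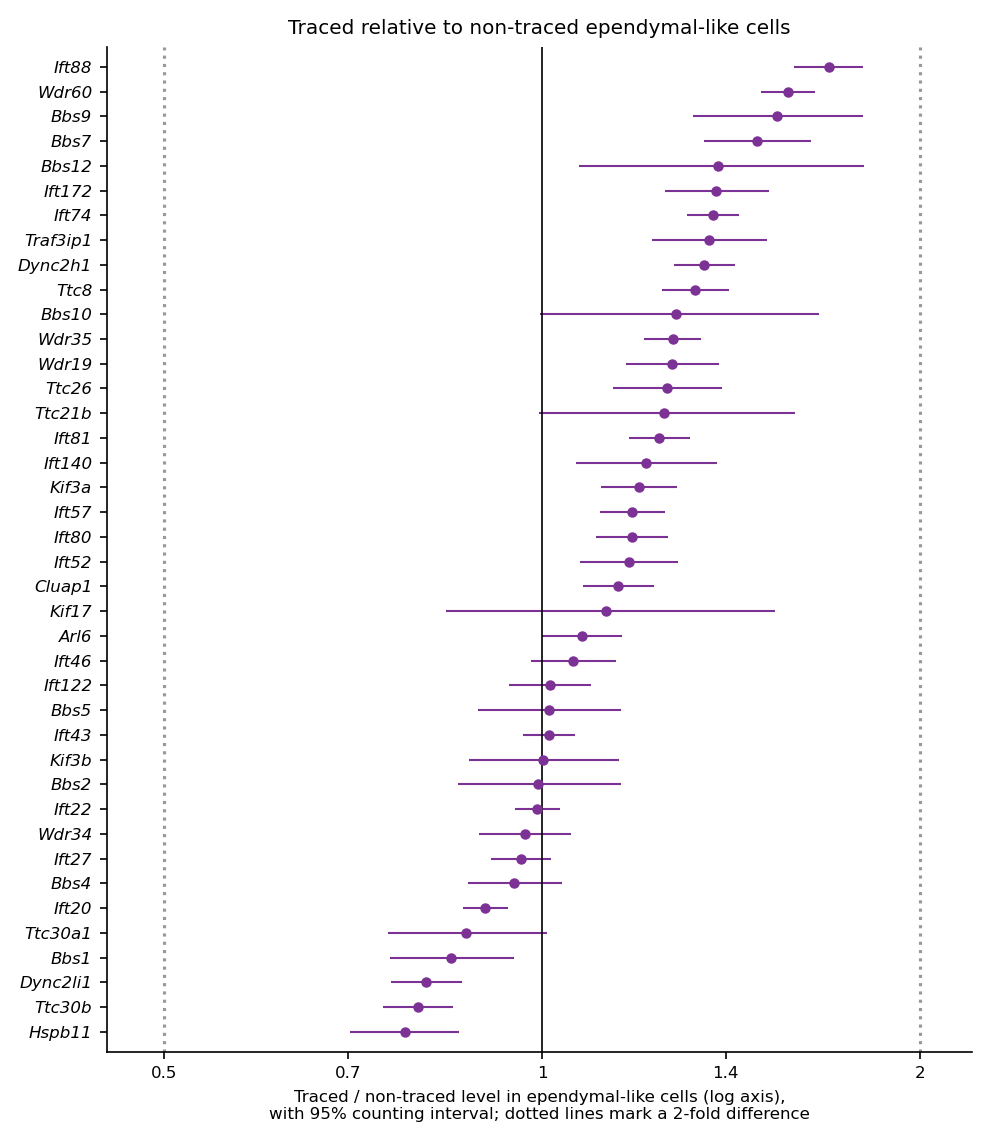
Ratio of the CPM level in traced to that in non-traced ependymal-like cells for each of the 40 genes, on a log axis, with 95% counting intervals. All points lie between the dotted lines at a 2-fold difference, from 0.777 for Hspb11 to 1.69 for Ift88.

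In the traced library itself, 33 of the 40 genes were at least 2-fold higher in the 4758 ependymal-like than in the 59 endothelial-like cells, where 23.6% of all rows were, and the summed ratio was 3.85 (3.58 to 4.14). Motile axoneme genes had a median of 13.9% of their ependymal level in these 59 cells, with 18 of the 40 genes above the highest such value of 27.0%. The levels in the traced endothelial-like cells were therefore not read further.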

How the data were processed

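The authors deposited raw counts of UMIs per gene and cell barcode, 1 table per library, from the 10x Chromium 3′ kit. Per the submitters' processing notes they were made with Cell Ranger 3.0.2 and STAR 2.5.1b on mm10. With 1 library per group, no test was run. The study's cell filter removed no cell. The libraries were joined by the integration of Seurat 5.3.0 under R 4.3.3, using 2000 features without the 40 genes or reporter rows, with 20 components and resolution 0.8, which gave 21 clusters. The part of each library in a cluster was named by its markers. The check of leading genes was set against cells of other classes, a choice made after seeing the data. Doublets were kept, and alternatives removed mixed and deep cells. Counts were summed per class and scaled to CPM, with exact Poisson and Clopper-Pearson intervals and a pseudocount of 1 CPM for log2 differences. A count of 0 was given a limit of 3 counts. The steps were tested on simulated data. The genes and lists were chosen with earlier results of these data known. Full values are given for the largest and smallest ependymal minus endothelial difference of each complex, and for the 5 largest and 5 smallest traced minus non-traced ones. Further genes, such as Ift20, Ift43 and Ift81, were chosen after their values were seen. Gene positions are those of GENCODE M21 on GRCm38, the build of the files. Alternatives were no integration, whole clusters, cell filters, TMM scaling (edgeR 4.0.16), another total, thinning, pseudocounts of 0.1 and 5 CPM, and a minimum mean of 5 CPM.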

Additional observations from a re-analysis of the deposited data

How the results depend on the processing

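No paired analysis was possible because each group was 1 library and the labels carry no replicate numbers. Over all alternatives, the genes at least 2-fold higher in ependymal-like cells numbered 34 to 37 of 40 against endothelial-like and 32 to 35 against mural-like cells, and those higher in mural-like than in endothelial-like cells 6 to 12. The number of genes at least 2-fold lower in mural-like than in endothelial-like cells, 1 as reported, was 2 with no integration, 2 with at most 5% mitochondrial UMIs, 3 with mural cells taken by a marker gate (added after seeing the data), 7 with cells thinned to 1000 UMIs and 18 without cells with UMIs of 2 markers of another class, which left 26 mural-like cells. That last setting also gave 1 gene 2-fold lower in ependymal-like than in mural-like cells, 1 gene (Bbs10, 1.26) 2-fold higher in traced than in non-traced ependymal-like cells and a share of mural-like cells with a UMI of 53.8%. It turned the mural minus endothelial difference to -2.91 for Ift122 and -1.28 for Wdr34, and thinning turned that of Bbs12 to -1.31. Thinning gave 2 genes 2-fold higher in traced ependymal-like cells (Bbs10, 1.29, and Bbs12, 1.29). Naming whole clusters lowered the thinned share of non-traced ependymal-like cells with a UMI to 91.2%, and without thinning the shares were 100% and 100% in both ependymal classes, 97.4% in endothelial-like and 96.8% in mural-like cells. Single-gene differences that moved beyond their counting interval numbered 244 for ependymal against endothelial-like cells, where 196 did not, 55 for ependymal against mural-like (425 did not), 58 for mural against endothelial-like (419 did not and 3 turned direction) and 52 for traced against non-traced cells (388 did not), over all genes and settings. The causes were not tested. With no integration the mural-like class was a cluster of 168 cells led by Vtn, Kcnj8 and Art3 instead of 280 led by Tagln, Acta2 and Myh11. The median of all rows in the ependymal against mural comparison, 0.16, was 0.57 without the mixed cells, 0.41 after thinning and 0.32 with the mitochondrial limit. The 280 mural-like cells held 1599 UMIs of the 40 genes.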
